A study of Mus musculus with 6 samples.

Results

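Heat shock proteins and DnaJ co-chaperones are the genes described here, in the tibialis anterior (TA) muscle of dystrophic mice with and without active Notch1 in their muscle fibers. A gene counted as a member if its mouse symbol began with Dnaj, Hsp90, Hsph, Hspe, Hspd, Hspb or Hspa, and *Hsf1*, *Bag3* and *Cryab* were added by name. Of 93 such entries in the RefSeq gene table, 75 had a probe on the array, and 66 were kept among 13706 kept genes in all. Kept means that at least 1 probe of the gene was marked well above background on all 3 arrays in 1 channel, and where several probes passed, the brightest one was read. The 66 members were 12 HSP70 and HSP110 genes, 3 HSP90 genes, 9 small heat shock proteins, the chaperonin pair *Hspd1* and *Hspe1*, 4 DNAJA, 9 DNAJB and 24 DNAJC genes, and *Bag3*, *Hsf1* and *Hspbp1*. The 9 members with a probe but no kept probe were *Dnajb7*, *Dnajb8*, *Dnajb13*, *Dnajc5b*, *Dnajc5g*, *Dnajc6*, *Dnajc22*, *Hspa12a* and *Hspbap1*. Of the 18 entries with no probe 16 were pseudogenes, and the other two, *Hspa1b* and *Dnajb5*, were not measured here. All 66 kept members were above background in both channels of every array, so each one had a measured level in all 6 muscles.

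Both groups were *mdx* mice, which lack dystrophin, on a mixed 129 × C57BL/6 background, fed regular chow and labelled as 9 months of age. The N1ICD-*mdx* mice also carried the Notch1 intracellular domain (N1ICD) in the Rosa26 locus, switched on by Cre recombinase from the MCK (muscle creatine kinase) promoter, which is active in muscle fibers and not in satellite cells. The comparison asked how fiber-restricted Notch1 activation changed gene expression in dystrophic muscle. There were 3 muscles per group, and each of the 3 arrays paired 1 *mdx* muscle in Cy3 (green) with 1 N1ICD-*mdx* muscle in Cy5 (red).

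Heat shock proteins are molecular chaperones that bind unfolded or aggregation-prone proteins. HSP70 proteins cycle between binding and release of a client by ATP hydrolysis, DnaJ proteins (also called HSP40) bring clients to HSP70 and start that hydrolysis, and HSP110 proteins and BAG domain proteins such as Bag3 reset the cycle by exchanging the nucleotide. HSP90 acts late on clients that HSP70 hands over, and small heat shock proteins hold partly unfolded proteins without ATP. In striated muscle several small heat shock proteins are abundant at the Z-disc, where Bag3 and HspB8 direct damaged filamin to autophagy. The heat-inducible members are switched on by heat shock factor 1 (*Hsf1*) through heat shock elements in their promoters, and the chaperones of the endoplasmic reticulum (ER) by the unfolded protein response through ER stress elements.

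Promoter stretches of members with these elements are shown for the following reasons. The ER members that carry the ER stress element were all lowest on the same array, array 2, as were *Dnajb11* and *Dnajb14*, in which it was not found. Many members outside the ER were lowest there too, such as *Dnaja1*, *Dnajb1*, *Hspa4* and *Hspa14*, so this trait is not tied to the element. *Dnajb4* is 1 of the 6 members named by an unadjusted p. The search covered the 250 bases before each RefSeq transcript start of GRCm38.p6 on both strands, and 52 of the 66 members had such a promoter in the table at hand. The ER stress element, CCAAT and CCACG with 9 bases of any kind between them, was found in 3 of the 52 members (5.77%), *Hspa5*, *Hsp90b1* and *Dnajc3*, and in 0.13% of the promoters of 27025 genes. In the stretches below, which run 5′ to 3′ on the gene's strand, capitals mark the element, and in Hsp90b1 a second copy on the opposite strand is also in capitals. They lie at chr2:34772000-34772068 (plus strand) for *Hspa5*, chr10:86705508-86705681 (minus strand) for *Hsp90b1* and chr14:118937802-118937870 (plus strand) for *Dnajc3*, all upstream of the first exon.
Hspa5: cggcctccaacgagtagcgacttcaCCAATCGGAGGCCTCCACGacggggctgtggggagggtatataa
Hsp90b1: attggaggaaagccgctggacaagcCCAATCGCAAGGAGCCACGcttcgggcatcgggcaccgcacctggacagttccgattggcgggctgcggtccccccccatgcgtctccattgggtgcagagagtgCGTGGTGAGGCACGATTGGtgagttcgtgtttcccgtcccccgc
Dnajc3: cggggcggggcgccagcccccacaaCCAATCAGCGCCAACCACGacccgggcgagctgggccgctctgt

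The heat shock element was searched as 3 units, GAA, TTC and GAA, and as 2 units, TTC and GAA, with 2 bases of any kind between neighbouring units, so that the longer form contains the shorter. The 3-unit form was found in 3 of 52 members (5.77%), *Hspd1*, *Hspe1* and *Dnajb6*, against 0.514% of all promoters, and the 2-unit form in 6 of 52 (11.5%), which adds *Dnajb4*, *Hsph1* and *Dnajc10*, against 8.11% of all. Neither form was found in *Hspa1a*, *Dnajb1*, *Dnaja1*, *Hspb1* or *Bag3*. *Hspa8*, *Hsp90aa1*, *Hsp90ab1*, *Cryab* and *Hspb2* were among the members with no promoter to search. Capitals below mark the element, and in *Hspe1* they cover 2 overlapping matches of the 3-unit form, 1 on each strand. *Hspe1* and *Hspd1* are transcribed away from each other from the same stretch, at chr1:55088034-55088101, which is printed on the plus strand of *Hspe1*. The others lie at chr5:29735827-29735889 (plus) for *Dnajb6*, chr3:152193846-152193884 (minus) for *Dnajb4* and chr5:149636337-149636394 (minus) for *Hsph1*.
Hspe1: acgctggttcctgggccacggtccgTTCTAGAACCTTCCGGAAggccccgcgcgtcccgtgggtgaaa
Dnajb6: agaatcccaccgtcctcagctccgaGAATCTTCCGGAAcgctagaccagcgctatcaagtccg
Dnajb4: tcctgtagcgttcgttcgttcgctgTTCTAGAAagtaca
Hsph1: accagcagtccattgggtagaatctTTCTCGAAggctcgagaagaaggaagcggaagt

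The core of the site bound by RBPJ, the DNA-binding partner of N1ICD, was searched in the same windows as GTGGGAA. It was found in 2 of 52 members (3.85%), *Hspb1* and *Dnajc28*, against 6.18% of all promoters. A match describes the letters only, and a window without one says nothing of the factor.

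Ratios are log2 of N1ICD-*mdx* over *mdx* within an array, and levels are log2 normalized intensity of 1 muscle. Because no array had the dyes exchanged, genotype and dye cannot be told apart in any value given here. The median signal of a spot was 49 to 53 in Cy3 over a background of 42 to 47, and 23 to 27 in Cy5 over a background of 17, and 3 arrays limit the precision. The muscle farthest from the rest was *mdx* replicate 2, whose levels correlated across genes at 0.967 to 0.982 with those of the other 5 muscles, against 0.987 to 0.994 among the others. Of 7 genes chosen to check the genotype 5 were measured. *Notch1* had a log2 ratio of -0.12 ± 0.08 (SE of limma, 3 arrays), below 0 on every array, from a probe whose place relative to the transgene is not known. Its targets *Nrarp* (0.28 ± 0.09), *Heyl* (0.44 ± 0.12), *Hey1* (0.21 ± 0.08) and *Hes1* (0.11 ± 0.09) had ratios above 0 on every array. The levels of the 2 groups overlapped for *Heyl*, *Hey1* and *Hes1*. All 10 muscle fiber markers listed were measured, and their mean level was 14.7 to 14.9 in *mdx* and 15.3 to 15.4 in N1ICD-*mdx* muscles. In whole muscle, fewer cells of a type and less RNA per cell cannot be told apart.

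None of the 66 members passed an adjusted p under 0.05 in limma, as was the case for all 13706 genes (0%). At an unadjusted p under 0.05, 6 members differed (9.09%, against 6.49% of all genes). Of these, 4 members were higher in N1ICD-*mdx* muscle (6.06% of members, against 4.05% of all genes) and 2 were lower (3.03%, against 2.44%). The higher ones were *Dnaja4*, *Hspa8*, *Dnajb4* and *Hspb3*, and the lower ones *Dnajc9* and *Dnajc3*. With no background correction, and with a normexp offset of 10, *Hspa8*, *Hspb3* and *Dnajc3* no longer passed and 3 of the 6 remained. With the processed signals only *Dnaja4* remained, and with a trended, robust variance *Dnaja4*, *Hspa8* and *Dnajc9*. The t-test of the methods, on the 6 levels, gave 5 higher and 1 lower (9.09%, against 6.67% of all genes) and again none after adjustment. At 1.5-fold together with an unadjusted p under 0.05, *Dnaja4* was the 1 member that was higher (1.52%, against 0.474% of all genes), and 0 were lower (against 0.482%).

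More members lay above than below a ratio of 0. The mean ratio was above 0 in 44 of 66 members (66.7%), against 49.1% of all genes, with a median of 0.04 for the members and -0.00 for all genes. It was above 0 on all 3 arrays in 17 members (25.8%, against 17.7%) and below 0 on all 3 in 11 (16.7%, against 16.4%). In 12 members every N1ICD-*mdx* muscle was above every *mdx* muscle (18.2%, against 7.75%), and in 2 members, *Dnajc3* and *Dnajc5*, every one was below (3.03%, against 6.31%). These shares were closer to each other when 1 array was left out, at 56.1% of members and 51.1% of genes above 0 without replicate 2, 57.6% and 49.4% without replicate 1 and 62.1% and 49.9% without replicate 3. With array quality weights they were 56.1% and 49.6%. When arrays were only centred on their medians, without loess, the median of all genes moved to -0.18 and that of the members to -0.16, and 22.7% of members and 17.8% of genes were above 0.

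**Figure D1:**
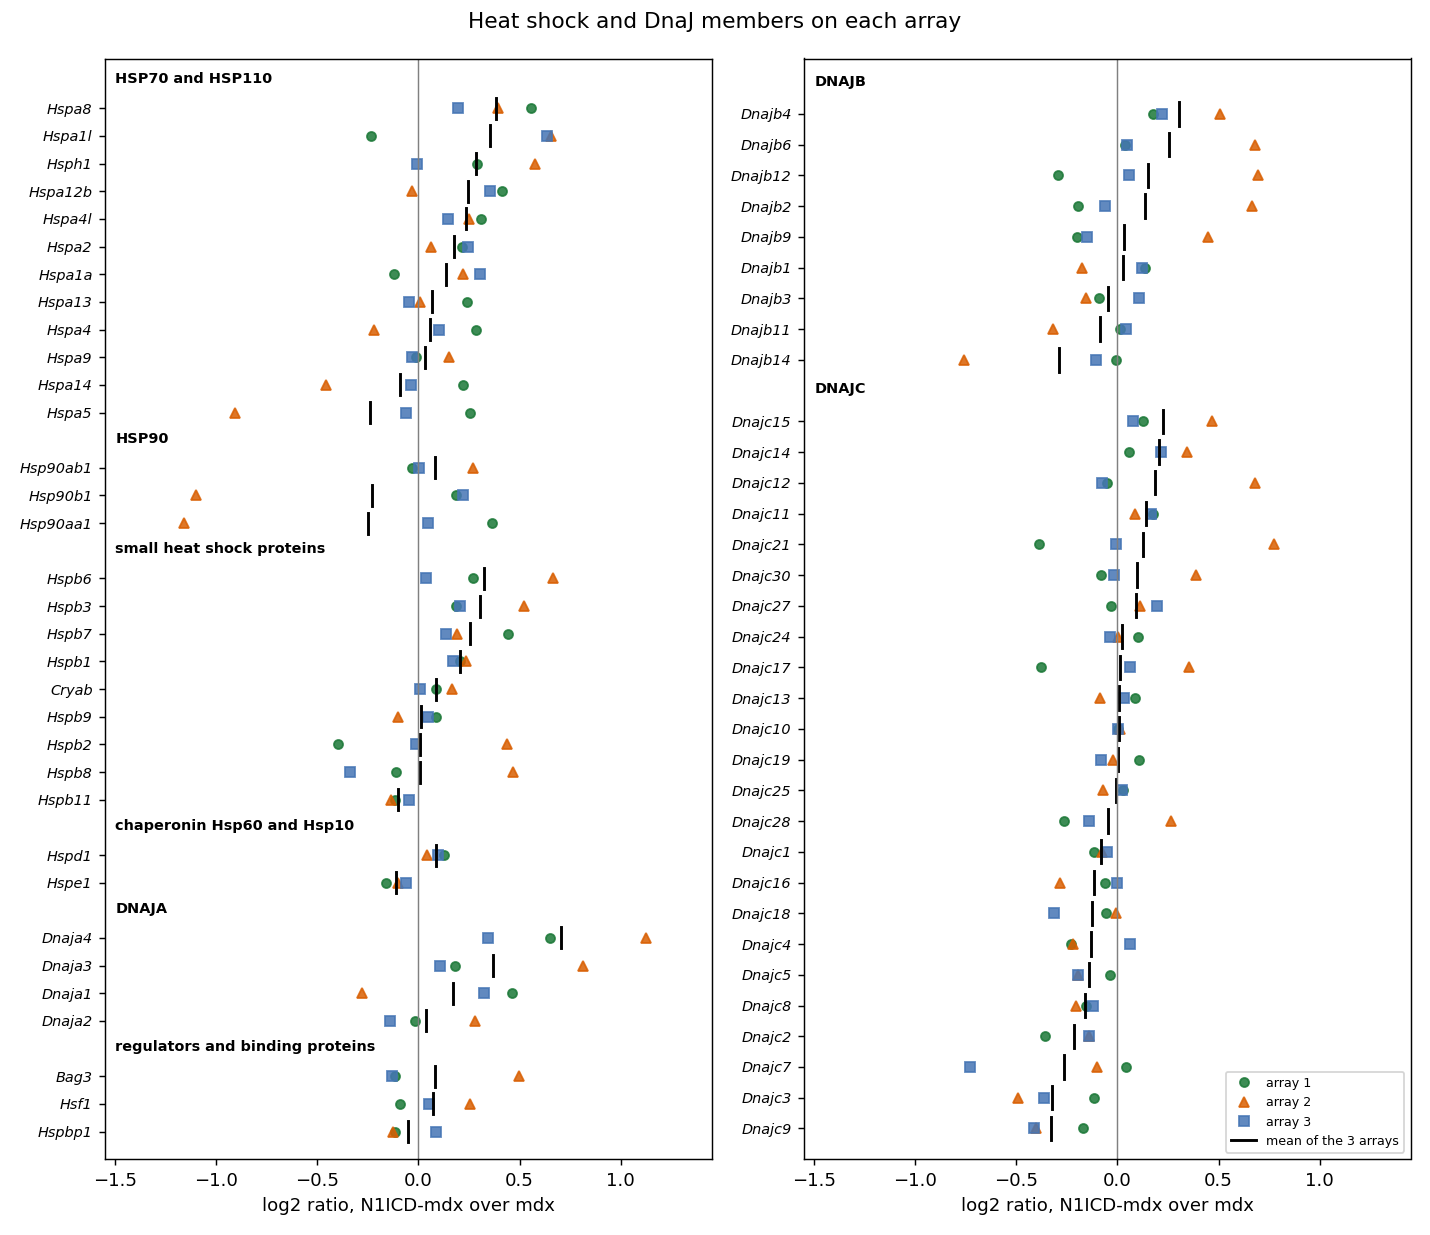
Log2 ratio of N1ICD-*mdx* over *mdx* muscle for each of the 66 members on the 3 arrays (symbols) with their mean (black bar), grouped by family and ordered by the mean. *Dnaja4* lies farthest to the right at 0.71, and array 2 holds the most distant points, such as *Hsp90aa1* at -1.16 and *Hsp90b1* at -1.10.

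The HSP70 and HSP110 genes mostly had small ratios above 0, although with median centring their median was -0.04, beside -0.18 for all genes. As reported, the mean ratio was above 0 in 10 of 12 members, with a median of 0.16 and medians of 0.25, 0.11 and 0.12 on arrays 1, 2 and 3. Of the 12, 1 passed the unadjusted threshold, against 6.49% of all genes. The 2 members below 0 were *Hspa5* and *Hspa14*.

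*Hspa8* encodes Hsc70, the constitutive cytosolic HSP70 that folds new proteins and uncoats clathrin vesicles. Its level was 14.66, 14.84 and 14.86 in *mdx* muscles 1, 2 and 3 and 15.21, 15.23 and 15.05 in N1ICD-*mdx* muscles. Every N1ICD-*mdx* muscle was above every *mdx* muscle. The ratio was 0.38 ± 0.11 (SE, 3 arrays), with 0.56, 0.39 and 0.20 on the 3 arrays (limma, unadjusted p = 0.022, adjusted p = 0.703). The other two kept probes of *Hspa8* did not show this difference, with ratios of 0.02 and -0.36, so that the mean over its probes was 0.01. *Hspa8* has many processed copies in the genome, and which of them each probe could bind was not examined.

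*Hspa1a*, the heat-inducible HSP70, had levels of 6.72, 6.56 and 6.57 in *mdx* and 6.60, 6.78 and 6.87 in N1ICD-*mdx* muscles. The groups overlapped, with a ratio of 0.14 ± 0.12 and a 95% interval of -0.19 to 0.46. These levels were near the floor, since the probes of the members not kept had mean levels of 5.83 to 6.05. The ratio of *Hspa1a* depended on the background correction, at 0.23 with a normexp offset of 10 and 0.27 with the processed signals. The *Hspa1a* and *Hspa1b* genes are nearly identical, so this probe may read both. *Hsph1*, an HSP110 nucleotide exchange factor of HSP70 and heat-inducible, had ratios of 0.29, 0.58 and -0.01 on the 3 arrays, and its second probe gave a mean of 0.27 beside 0.29 for the first. *Hspa9*, the mitochondrial HSP70 (mortalin), had a ratio of 0.03 ± 0.09 and levels between 11.73 and 11.92 in all 6 muscles.

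All 4 DNAJA genes, co-chaperones that bind clients themselves, had a mean ratio above 0, with a median of 0.27 and medians of 0.32, 0.55 and 0.22 on arrays 1, 2 and 3. With median centring the median of the 4 was 0.06, and *Dnaja1* was at -0.03. In 2 of them, *Dnaja4* and *Dnaja3*, every N1ICD-*mdx* muscle was above every *mdx* muscle, as in 7.75% of all genes.

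*Dnaja4*, a type I co-chaperone expressed in heart and skeletal muscle, had the highest mean ratio of the 66 members and ranked 45 of 13706 genes. Its level was 10.97, 10.64 and 11.24 in *mdx* replicates 1, 2 and 3 and 11.61, 11.76 and 11.58 in N1ICD-*mdx* muscles. All N1ICD-*mdx* muscles were above all *mdx* muscles, and the *mdx* muscles varied more among themselves. The ratio was 0.71 ± 0.17 (SE, 3 arrays), or 1.63-fold, with 0.65, 1.12 and 0.34 on arrays 1, 2 and 3 and a 95% interval of 0.23 to 1.18 (limma, unadjusted p = 0.014, adjusted p = 0.703). A second, dimmer probe of *Dnaja4* had ratios of 0.08, 0.30 and -0.24, so that the mean over both probes was 0.38 with an unadjusted p of 0.063 in limma. Without replicate 1 the ratio was 0.73 with an unadjusted p of 0.055, without replicate 2 it was 0.50 with a p of 0.004, and without replicate 3 it was 0.89 with a p of 0.013 (limma).

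*Dnaja3* (Tid1), the mitochondrial partner of mortalin, had levels of 11.37, 10.83 and 11.39 in *mdx* and 11.56, 11.65 and 11.50 in N1ICD-*mdx* muscles. The N1ICD-*mdx* muscles were above the *mdx* muscles throughout, but by 0.18 and 0.11 on arrays 1 and 3 and by 0.81 on array 2, where the *mdx* muscle was low. The mean was 0.37 ± 0.17 (limma, unadjusted p = 0.096). *Dnaja1*, a heat-inducible cytosolic member, ran the other way on array 2, with ratios of 0.46, -0.28 and 0.32.

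**Figure D2:**
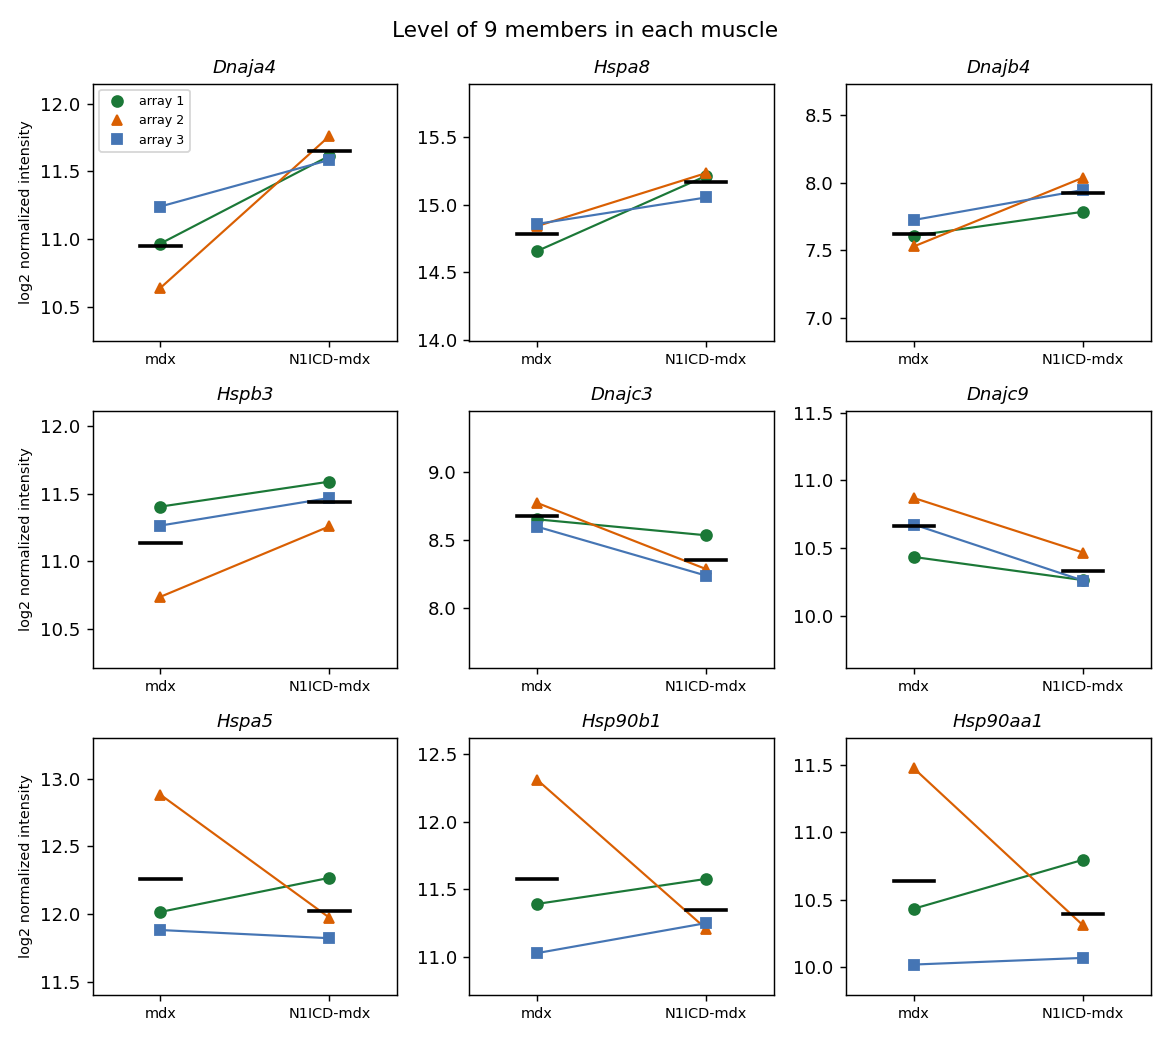
Level (log2 normalized intensity) of 9 members in the 3 *mdx* and 3 N1ICD-*mdx* muscles, with a line joining the muscles of an array and a black bar at each group mean, and a vertical axis of the same height but a different position in each panel. For *Dnaja4*, *Hspa8* and *Dnajb4* the N1ICD-*mdx* muscles lie above the *mdx* muscles and for *Dnajc3* below, whereas *Hspa5*, *Hsp90b1* and *Hsp90aa1* are set apart by the *mdx* muscle of array 2, at 12.88, 12.31 and 11.47.

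The DNAJB genes, among them the co-chaperones that suppress aggregates and those that serve HSP70 in the ER, showed no common direction. The mean ratio was above 0 in 6 of 9, with a median of 0.03, and on arrays 1, 2 and 3 the medians were -0.01, 0.45 and 0.04. *Dnajb4*, a cytosolic co-chaperone of HSP70 whose loss causes a myopathy in humans, was the 1 of the 9 that passed the unadjusted threshold (against 6.49% of all genes). Its level was 7.61, 7.53 and 7.73 in *mdx* and 7.79, 8.04 and 7.95 in N1ICD-*mdx* muscles. The groups did not overlap, and the ratio was 0.30 ± 0.11 (0.18, 0.51 and 0.22 on the 3 arrays; limma, unadjusted p = 0.045, adjusted p = 0.703). With median centring the ratio was 0.08, and leaving out any 1 replicate gave 0.20 to 0.36 with unadjusted p-values of 0.063 to 0.132 (limma).

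*Dnajb6*, the co-chaperone mutated in a limb-girdle muscular dystrophy of humans and located at the Z-disc, had levels of 11.17, 10.70 and 11.18 in *mdx* and 11.21, 11.38 and 11.23 in N1ICD-*mdx* muscles. The groups did not overlap, but the ratios were 0.04, 0.68 and 0.04, so the difference lay almost wholly on array 2. Its 4 kept probes had mean ratios from -0.17 to 0.25. *Dnajb1*, the heat-inducible HSP40, had ratios of 0.14, -0.17 and 0.12 and a 95% interval of -0.26 to 0.32.

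The genes grouped by symbol as small heat shock proteins had a mean ratio above 0 in 8 of 9 members. The median of the 9 was 0.09, or -0.00 with median centring, where the median of all genes was -0.18. Among those above 0, *Hspb2*, *Hspb8* and *Hspb9* had means of only 0.01. *Hspb2* changed sign between arrays, with ratios of -0.40, 0.44 and -0.01. The 1 member below 0 was *Hspb11*, at -0.10, which was placed here by its symbol only. Of the 9, 1 passed the unadjusted threshold, against 6.49% of all genes. In 4 of the 9 (against 7.75% of all genes), *Hspb1*, *Hspb6*, *Hspb7* and *Cryab*, every N1ICD-*mdx* muscle was above every *mdx* muscle. The 7 members of this family that are typical of striated muscle, with their partner *Bag3*, all had a mean ratio above 0, with a median of 0.15 and medians of 0.14, 0.45 and 0.02 on arrays 1, 2 and 3, but with median centring *Bag3*, *Cryab* and *Hspb8* were below 0. In 7 of these 8 genes *mdx* replicate 2 was the lowest of the 6 muscles, which was the case in 31% of all genes.

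*Hspb3*, a muscle-restricted small heat shock protein that pairs with HspB2, had levels of 11.41, 10.74 and 11.27 in *mdx* and 11.59, 11.26 and 11.47 in N1ICD-*mdx* muscles. Within each array the N1ICD-*mdx* muscle was higher, by 0.18, 0.52 and 0.20, although the groups overlapped. The mean was 0.30 ± 0.11 (limma, unadjusted p = 0.047, adjusted p = 0.703). Without the pairing by array its unadjusted p was 0.155, with median centring the ratio was 0.09, and leaving out any 1 replicate gave p-values of 0.067 to 0.125 (limma).

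*Hspb6* (Hsp20), a phosphoprotein of striated and smooth muscle, had levels of 14.43, 13.85 and 14.41 in *mdx* and 14.70, 14.51 and 14.44 in N1ICD-*mdx* muscles. The ratio was 0.32 ± 0.15, of which array 2 gave 0.67 and array 3 0.04. *Hspb7* (cvHsp), a partner of filamin C in the sarcomere, had ratios of 0.44, 0.19 and 0.13, with a mean of 0.25 ± 0.10 (limma, unadjusted p = 0.066). *Hspb1* (Hsp25 in mice), which protects actin and filamin under strain, varied little, with ratios of 0.20, 0.24 and 0.17 and a mean of 0.20 ± 0.08 (limma, unadjusted p = 0.064).

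*Cryab*, the αB-crystallin that guards desmin and titin, had levels of 14.30, 14.17 and 14.32 in *mdx* and 14.39, 14.34 and 14.32 in N1ICD-*mdx* muscles. The groups did not overlap, but the gap was small, and the ratio was 0.09 ± 0.09. *Hspb8* and *Bag3*, the pair that acts in chaperone-assisted autophagy, changed sign between arrays. *Hspb8* had ratios of -0.11, 0.47 and -0.34, and *Bag3* -0.12, 0.50 and -0.13.

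The muscle fiber markers had ratios in the same direction as the small heat shock proteins. Of 10 fiber markers 9 had a mean ratio above 0, with a median of 0.44 and medians of 0.33, 0.84 and 0.35 on arrays 1, 2 and 3. The unadjusted threshold was passed by 4 of the 10 (against 6.49% of all genes). The part of the fiber content in the values of the small heat shock proteins was not tested.

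The HSP90 genes did not differ in a common direction between the groups. *Hsp90ab1*, the constitutive cytosolic HSP90, had levels of 14.13, 13.96 and 14.16 in *mdx* and 14.10, 14.23 and 14.16 in N1ICD-*mdx* muscles, a ratio of 0.08 ± 0.10. *Hsp90aa1*, the heat-inducible form, which with Unc45b also folds myosin in muscle, had levels of 10.43, 11.47 and 10.02 in *mdx* and 10.80, 10.31 and 10.07 in N1ICD-*mdx* muscles. The *mdx* muscle of array 2 was the highest of the 6, and the ratios were 0.36, -1.16 and 0.05. Without array 2 the mean changed sign, from -0.25 to 0.21.

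Of the 10 members of the ER, *mdx* replicate 2 was the highest muscle in 5 (against 30.1% of all genes) and the lowest in 1. *Hspa5* (BiP), the HSP70 of the ER lumen, had levels of 12.02, 12.88 and 11.88 in *mdx* and 12.27, 11.97 and 11.82 in N1ICD-*mdx* muscles. *Hsp90b1* (Grp94), the HSP90 of the ER, had 11.39, 12.31 and 11.03 in *mdx* and 11.58, 11.21 and 11.25 in N1ICD-*mdx* muscles. For both, *mdx* replicate 2 was the highest muscle. The other 5 ran from 11.82 to 12.27 for *Hspa5* and from 11.03 to 11.58 for *Hsp90b1*. *Hspa5* had ratios of 0.25, -0.91 and -0.06, and without array 2 its mean went from -0.24 to 0.10. *Hsp90b1* had ratios of 0.19, -1.10 and 0.22, and without array 2 its mean went from -0.23 to 0.20.

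*Dnajc3* (p58IPK), a co-chaperone of BiP in the ER lumen, was lower in N1ICD-*mdx* muscle on all arrays. Its level was 8.65, 8.77 and 8.60 in *mdx* and 8.53, 8.28 and 8.24 in N1ICD-*mdx* muscles. Every N1ICD-*mdx* muscle was below every *mdx* muscle. The ratio was -0.32 ± 0.11 (-0.12, -0.49 and -0.36 on the 3 arrays; limma, unadjusted p = 0.039, adjusted p = 0.703). Without array 2 it was -0.24 with an unadjusted p of 0.056, without array 3 -0.30 with a p of 0.179, and without array 1 -0.43 with a p of 0.048 (limma).

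The 3 members with an ER stress element in the stretches shown above, *Hspa5*, *Hsp90b1* and *Dnajc3*, had mean ratios of -0.24, -0.23 and -0.32. All were lowest on array 2, and without array 2 their means were 0.10, 0.20 and -0.24, so only *Dnajc3* stayed below 0. Being lowest on array 2 was not particular to them. It also held for *Dnajb11* and *Dnajb14*, in which the element was not found. The same was true of members outside the ER, such as *Hsp90aa1*, *Dnaja1*, *Dnajb1*, *Hspa4* and *Hspa14*. How many of all genes were lowest on array 2 was not counted. The other ER members had no common direction. *Dnajb9* (ERdj4), which binds clients for ER-associated degradation and is itself induced by ER stress, had ratios of -0.20, 0.45 and -0.15. *Dnajb11* (ERdj3), a BiP co-chaperone of the lumen, had 0.01, -0.32 and 0.04. *Dnajb14*, which sits in the ER membrane, had -0.01, -0.76 and -0.11, with levels of 9.76, 10.14 and 9.54 in *mdx* and 9.75, 9.38 and 9.44 in N1ICD-*mdx* muscles. Over the 10 ER members 4 had a mean ratio above 0 and 6 below, with a median of -0.09 and medians of -0.00, -0.20 and -0.05 on arrays 1, 2 and 3.

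**Figure D3:**
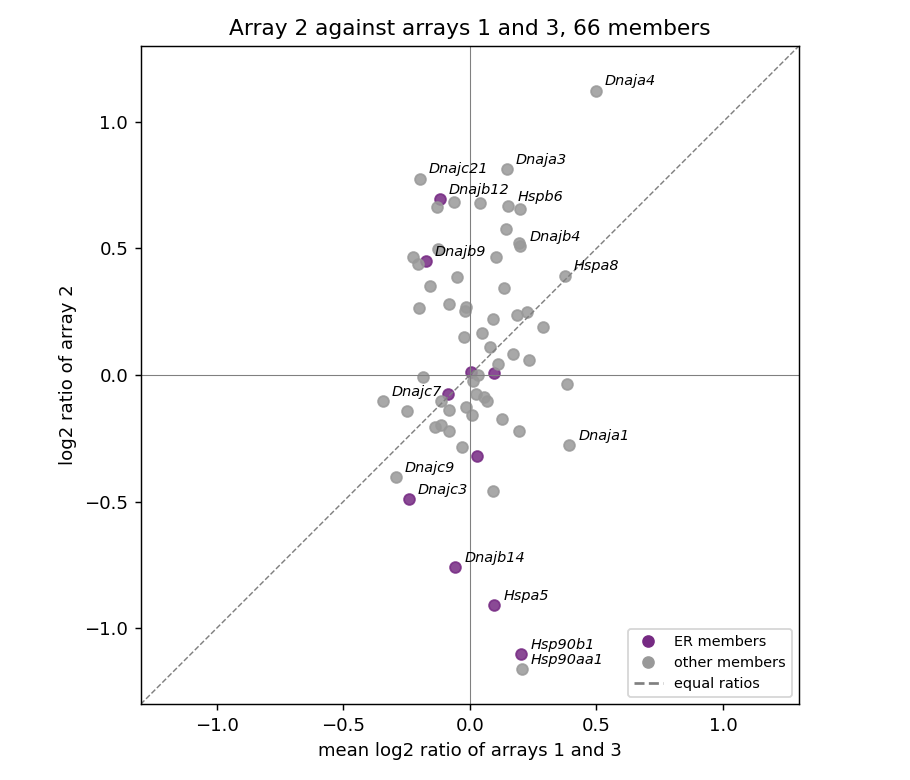
Log2 ratio on array 2 (vertical axis) against the mean of arrays 1 and 3 (horizontal axis) for the 66 members, with ER members in purple and a dashed line where both are equal. *Hspa5*, *Hsp90b1* and *Hsp90aa1* lie between -0.91 and -1.16 on array 2 and just above 0 on the horizontal axis, while *Dnaja4*, *Hspa8* and *Dnajb4* are above 0 on both.

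Array 2 had the widest ratios of the 3 arrays over all genes, and this was not particular to the members. The standard deviation of its ratios was 0.54 over all genes and 0.44 over the members. On array 1 these values were 0.24 and 0.23, and on array 3 they were 0.24 and 0.20. Array 2 was the array farthest from 0 in 44 of 66 members (66.7%), against 59.2% of all genes. A ratio of at least 1.5-fold in either direction was found in 13 members on array 2 (19.7%, against 18.2% of all genes), in 1 on array 1 (1.52%, against 2.92%) and in 2 on array 3 (3.03%, against 2.58%). *mdx* replicate 2 was the lowest of the 6 muscles in 29 members (43.9%, against 31% of all genes) and the highest in 17 (25.8%, against 30.1%). Across the 66 members the ratios of arrays 1 and 3 correlated at r = 0.37, those of arrays 1 and 2 at -0.09 and those of arrays 2 and 3 at 0.21. Over all genes these values were 0.36, 0.00 and 0.12, and the genes share array, dye and muscle, so these are descriptions.

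Genes of macrophages and of dividing cells were also high in *mdx* replicate 2. The mean level of 11 measured macrophage markers of 12 listed was 10.8, 11.8 and 10.2 in *mdx* replicates 1, 2 and 3 and 10.7, 9.90 and 10.1 in N1ICD-*mdx* muscles. Their mean ratio was below 0 in 11 of 11, with medians of -0.15, -1.81 and -0.12 on arrays 1, 2 and 3. The mean level of the 3 measured proliferation markers of 5 listed was 7.98, 9.55 and 6.83 in *mdx* and 8.25, 6.75 and 6.72 in N1ICD-*mdx* muscles, and their medians were 0.20, -2.52 and -0.12. All of these markers were above background on every array of at least 1 channel. Their part in the values of *Hspa5*, *Hsp90b1*, *Hsp90aa1* and the other members on array 2 was not tested, and the array 1 and 3 ratios of the same members are given beside each.

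The folding genes of the ER outside the heat shock and DnaJ families showed array 2 more strongly. Of 14 measured, 12 had a mean ratio below 0, with a median of -0.40 and medians of -0.02, -1.03 and -0.12 on arrays 1, 2 and 3, and none passed the unadjusted threshold. *Sdf2l1*, a cofactor of ERdj3 and BiP, had ratios of -0.07, -1.14 and -0.28, *Sec61b*, a subunit of the translocon, -0.10, -0.98 and -0.22, and *Creld2*, an ER stress-induced protein, -0.11, -1.07 and -0.14. Without array 2 the median of the 14 was -0.07.

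**Figure D4:**
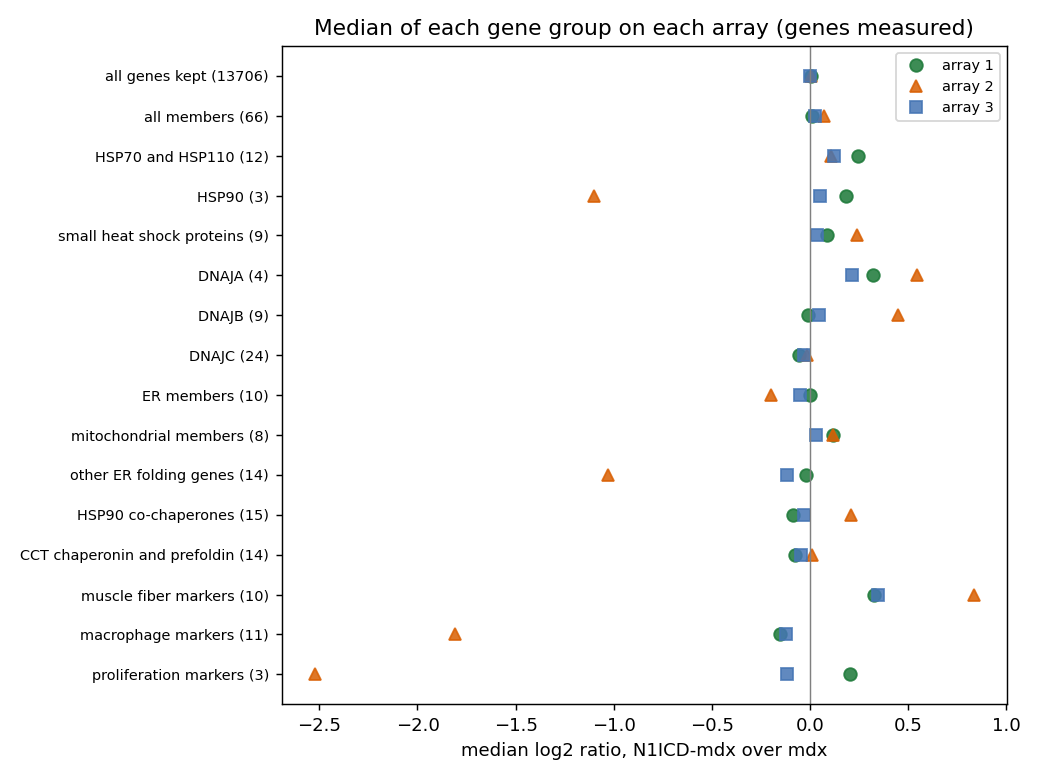
Median log2 ratio of N1ICD-*mdx* over *mdx* muscle on each of the 3 arrays (symbols) for all genes, the member families and sites, other chaperone lists and cell type markers, with the number of genes measured in parentheses. The medians of the HSP90 genes, the other ER folding genes, the macrophage markers and the proliferation markers lie far to the left on array 2 only, at -1.10, -1.03, -1.81 and -2.52, while those of the DNAJA genes and the fiber markers lie to the right on all 3 arrays.

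Of the 8 mitochondrial members 7 had a mean ratio above 0, with a median of 0.09, and none passed the unadjusted threshold. In 2 of the 8 (against 7.75% of all genes) every N1ICD-*mdx* muscle was above every *mdx* muscle, *Dnaja3*, given above, and *Dnajc15*, a protein of the inner membrane. *Dnajc15* had levels of 13.03, 12.68 and 13.06 in *mdx* and 13.16, 13.15 and 13.14 in N1ICD-*mdx* muscles, a ratio of 0.22 ± 0.12 with 0.13, 0.47 and 0.08 on the 3 arrays. *mdx* replicate 2 was again the low muscle. *Hspd1* (Hsp60) and *Hspe1* (Hsp10), the subunits of the chaperonin of the matrix that are transcribed from 1 shared promoter stretch, had ratios of 0.09 ± 0.08 and -0.11 ± 0.08. *Hspd1* was above 0 on all 3 arrays (0.13, 0.04 and 0.10) and *Hspe1* below 0 on all 3 (-0.16, -0.10 and -0.06), and the difference between them was not tested. Their 95% intervals were -0.14 to 0.31 and -0.33 to 0.12.

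The 24 DNAJC genes, a mixed family with a J domain but no other common structure, were split evenly, 12 above and 12 below 0. Their median was -0.00. Of the 24, 2 passed the unadjusted threshold (against 6.49% of all genes), both lower (against 2.44%). In 8 the ratio was below 0 on all 3 arrays (against 16.4% of all genes) and in 4 above (against 17.7%). *Dnajc9*, a nuclear histone chaperone, had levels of 10.43, 10.87 and 10.67 in *mdx* and 10.26, 10.47 and 10.26 in N1ICD-*mdx* muscles. The N1ICD-*mdx* muscle was the lower one within each array, though the groups overlapped. The ratio was -0.33 ± 0.10 (-0.17, -0.40 and -0.41; limma, unadjusted p = 0.025, adjusted p = 0.703), the lowest mean of the 66 members. Without replicate 2 it was -0.29 with a p of 0.028, without replicate 1 -0.41 with a p of 0.049, and without replicate 3 -0.29 with a p of 0.168 (limma). The median of the proliferation markers was below 0 on arrays 2 and 3 and above 0 on array 1, and their part in the *Dnajc9* values was not tested.

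*Dnajc5* (cysteine string protein α), a co-chaperone of synaptic vesicles, had levels of 13.36, 13.49 and 13.33 in *mdx* and 13.32, 13.29 and 13.13 in N1ICD-*mdx* muscles. The groups did not overlap, with a ratio of -0.14 ± 0.09 (limma, unadjusted p = 0.179), but its other two probes had ratios of 0.32 and 0.04.

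**Figure D5:**
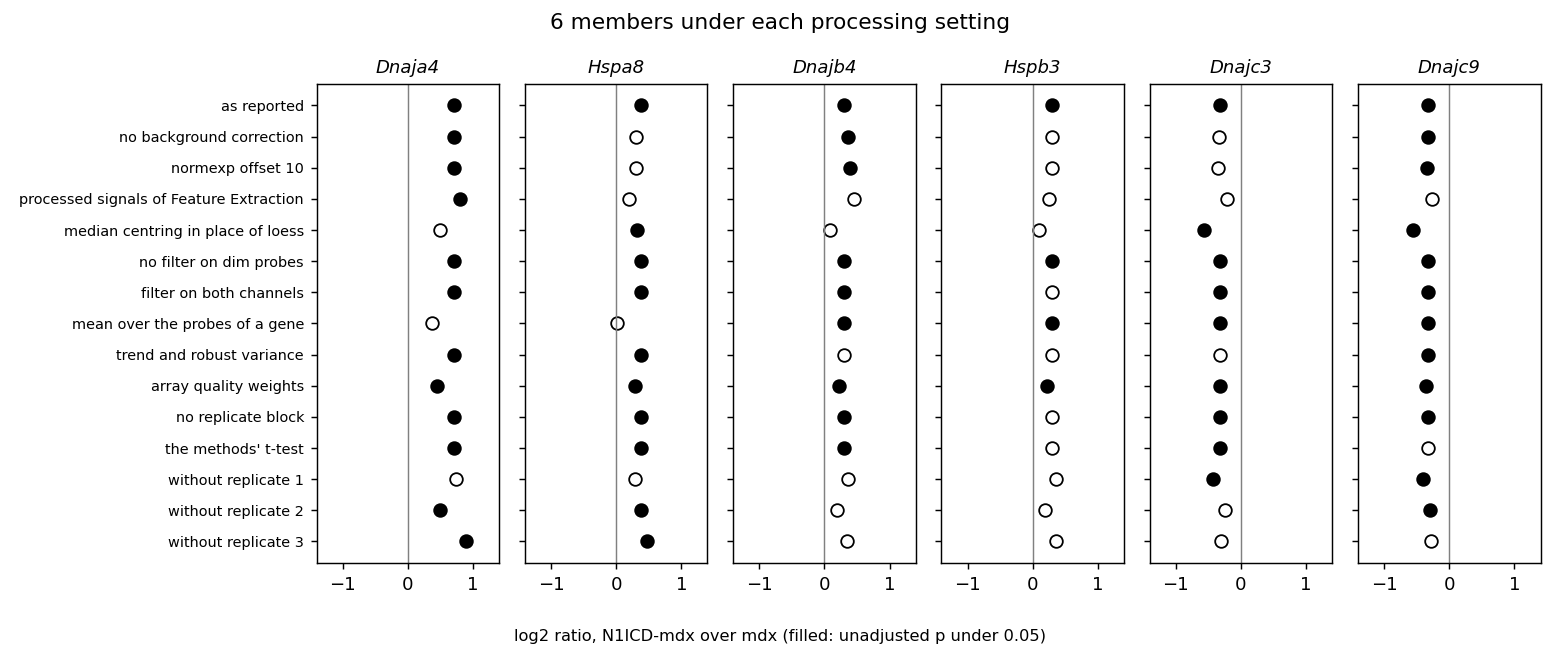
Log2 ratio of the 6 members with an unadjusted p under 0.05 under each of 15 processing settings, filled where the unadjusted p was under 0.05 and open where it was not. *Dnaja4* stayed between 0.38 and 0.89, *Dnajc9* between -0.56 and -0.27, and *Hspa8* came down to 0.01 when all its probes were averaged.

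*Hsf1* itself, which drives the heat-inducible members, had levels of 9.00, 8.78 and 9.18 in *mdx* and 8.91, 9.03 and 9.23 in N1ICD-*mdx* muscles, a ratio of 0.07 ± 0.11 that changed sign without array 2. Of 10 heat-inducible targets measured, 8 had a mean ratio above 0, with a median of 0.09 and medians of 0.13, 0.10 and 0.07 on the 3 arrays, and none passed the unadjusted threshold. The 3 members with the 3-unit heat shock element had ratios of 0.09 (*Hspd1*), -0.11 (*Hspe1*) and 0.25 (*Dnajb6*).

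The partners of the chaperones outside these families did not stand apart either. Of 15 co-chaperones of HSP90, 9 had a mean ratio above 0, with a median of 0.06 and none past the unadjusted threshold. Those of the smallest p were *Ptges3* (p23, which closes HSP90) at -0.30 ± 0.13, *Fkbp4*, an immunophilin of steroid receptors, at 0.25 ± 0.13 and *Cdc37*, which brings kinases to HSP90, at -0.16 ± 0.09. Of 10 measured nucleotide exchange and docking factors of HSP70, 5 were above 0, with none past the threshold, and of the 10 mitochondrial chaperones and proteases 7 were above 0, with none past it.

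Of the 14 subunits of the CCT chaperonin, which folds actin and tubulin, and of its partner prefoldin, 10 had a mean ratio below 0, with a median of -0.06. *Vbp1*, a prefoldin subunit, was the 1 of the 14 that passed the unadjusted threshold (against 6.49% of all genes), and it was higher. Its levels were 9.39, 9.38 and 9.63 in *mdx* and 9.65, 9.86 and 9.79 in N1ICD-*mdx* muscles. The ratio was 0.30 ± 0.10 (limma, unadjusted p = 0.041, adjusted p = 0.703). Of 8 genes of chaperone-assisted autophagy and myosin folding 5 were above 0, and 1 was past the threshold (against 6.49% of all genes). It was lower, *Vps18*, a tethering factor of lysosomes, at -0.24 ± 0.08 (limma, unadjusted p = 0.042). *Unc45b*, the myosin chaperone of striated muscle, had ratios of -0.13, 1.14 and 0.04, so here too the mean of 0.35 rested on array 2. Of 13 measured immediate early genes, which respond to handling stress in dissected tissue, 3 were above 0 and 10 below, with a median of -0.13. The 1 past the threshold (against 6.49% of all genes) was *Myc* at -0.41 ± 0.15 (limma, unadjusted p = 0.045).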

How the data were processed

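The authors hybridized TA RNA of 3 *mdx* (Cy3) and 3 N1ICD-*mdx* (Cy5) mice to 3 Agilent SurePrint G3 mouse arrays. Spots were read by Agilent Feature Extraction, given as 11.5 by the labels and as 11.5.1.1 by the headers. The deposited intensity values were median pixel signals and local backgrounds per spot, not normalized. They held no mean signals, so the medians were used. Signals were corrected by normexp (offset 50) and normalized by loess within each array in limma 3.58.1 (R 4.3.3, data.table version 1.17.8). Levels followed Aquantile scaling. Outlier spots were left out, and no spot was saturated. RefSeq accessions named 28026 of 55681 probes. Promoter sequences came from RefSeq (GRCm38.p6), which was not the array's build.

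Limma tested the 3 within-array log2 ratios against 0 (two-sided), adjusted by Benjamini-Hochberg over all 13706 genes. Replicates are biological replicates per the labels. Replicate numbers pair muscles because each array held both muscles of a number. The deviations of both muscles of an array from their group means correlated at -0.02, -0.29 and 0.34 on arrays 1, 2 and 3. The procedure was tested on simulated data. Members and gene lists were chosen with earlier results of these data known. Named members are those with an unadjusted p under 0.05, the 3 highest and 3 lowest ratios, the brightest of each family and a set of textbook members, and in other lists up to 3 genes of the smallest p. The alternatives were other background corrections, the processed signals, median centring, other filters, the mean over probes, a variance trend, array weights, no pairing, the methods' t-test and leaving out each replicate.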

Additional observations from a re-analysis of the deposited data

How the results depend on the processing

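No member passed an adjusted p of 0.05 in limma's test under any setting, and the counts here are at an unadjusted p under 0.05. With no background correction, 3 members were higher and 1 lower (6.06%, against 5.94% of all genes), and *Hspb8* was at -0.012. An offset of 10 gave 2 members higher and 1 lower (4.55%, against 6.03% of all genes), with *Hspb8* at -0.017. The processed signals of the scanner software gave 2 higher and 1 lower (4.55%, against 6.01% of all genes). With these signals 1 was lower at 1.5-fold, the member median was 0.078 and *Cryab* was at -0.0096. Median centring moved the median of all genes to -0.18 and that of the members to -0.16. It gave 1 member higher, 15 lower and 0 higher at 1.5-fold, together 24.2% of members against 20.6% of all genes. Under it the ratios of *Bag3*, *Cryab*, *Dnaja1*, *Dnajb1* and *Dnajb9* were -0.11, -0.0023, -0.032, -0.20 and -0.22. Those of *Hsf1*, *Hsp90ab1*, *Hspa9*, *Hspb8* and *Hspd1* were -0.18, -0.015, -0.16, -0.17 and -0.10. Testing without a filter on dim probes gave 9 members higher and 4 lower (19.7%, against 8.52% of all genes). A filter on both channels gave 5 members in all (7.58%, against 6.3% of all genes). Averaging probes also gave 5 (7.58%, against 6.2%), with 0 at 1.5-fold and *Dnajc5* at 0.073. The trended, robust variance gave 2 higher and 1 lower (4.55%, against 6.58% of all genes). The methods' t-test gave 5 higher and 1 lower (9.09%, against 6.67% of all genes). Array weights gave 12 higher, 5 lower (25.8%, against 22.3% of all genes) and 0 at 1.5-fold, with *Bag3*, *Dnajb11*, *Dnajb9* and *Hsp90aa1* at -0.10, 0.019, -0.13 and 0.059 and *Hsp90b1*, *Hspa9* and *Hspb8* at 0.15, -0.021 and -0.25. The within-array ratio pairs same-numbered muscles by array. Without this replicate block 5 members were higher and 2 lower (10.6%, against 6.35% of all genes), and 1 was at 1.5-fold. Leaving out each array in turn gave 1 to 6 members higher, 0 to 2 lower and 0 to 1 higher at 1.5-fold. Over these the ratio ran from -0.12 to 0.19 for *Bag3*, -0.026 to 0.13 for *Dnajb1*, -0.15 to 0.028 for *Dnajb11*, -0.17 to 0.15 for *Dnajb9*, -0.020 to 0.15 for *Hsf1* and -0.56 to 0.21 for *Hsp90aa1*. It ran from -0.013 to 0.14 for *Hsp90ab1*, -0.46 to 0.20 for *Hsp90b1*, -0.49 to 0.10 for *Hspa5*, -0.024 to 0.069 for *Hspa9* and -0.22 to 0.18 for *Hspb8*. Without array 1 the counts were 1 higher and 2 lower (4.55% of members, against 2.58% of all genes), without array 2 they were 6 and 2 (12.1%, against 15.4%), and without array 3 they were 2 and 0 (3.03%, against 2.16%). The cause of these shifts was not tested. The number of arrays, 3, limits the precision of every ratio.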
